A study of Mus musculus with 16 samples.

Results

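Chromatin accessibility was described for 10 mouse genes with roles in neuronal injury during experimental autoimmune encephalomyelitis (EAE), out of the 37255 gene intervals of the deposited table. The genes were picked by name for their known roles, with earlier results of these data already known. All 10 were found: Gpx4, Mb21d1, Tmem173, Tbk1, Irf3, Trpm4, Asic1, Stim1, Ppargc1a and Bsn. Mb21d1 and Tmem173 are older symbols of the genes now called Cgas and Sting1. The assay was ATAC-seq, which tags open DNA with a transposase and sequences it, and the cells were retinal ganglion cells taken by FACS from eyes of female mice. There were 5 libraries from naive control mice, and 4 presymptomatic, 3 onset and 4 peak libraries from mice with EAE, which had been induced at 7 to 8 weeks of age. An age of 7 to 8 weeks is recorded for the naive libraries as well. The sources used here give neither the mouse strain nor the immunisation, the sorting markers or any pooling of animals. The labels do not state that each library is a different animal, and the p-values then describe only how much these libraries vary, which may be technical in part.

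EAE is a model of multiple sclerosis in which immune cells attack myelin, and in which the optic nerve and the ganglion cells that feed it can be damaged. Neurons under inflammation take up sodium and calcium through channels such as TRPM4 and ASIC1, lose energy supply, accumulate misfolded presynaptic protein and can die by peroxidation of membrane lipids. Cytosolic DNA is sensed by the enzyme cGAS, whose product activates STING on the endoplasmic reticulum. STING recruits the kinase TBK1, which phosphorylates the transcription factor IRF3. STING is also held on the endoplasmic reticulum by STIM1, the sensor of stored calcium.

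No source used here states the window in which reads were counted. The deposited RPKM values divide by the gene span less 2000 bp, with the sign dropped where the span is under 2000 bp. None of the 10 genes is so short. Their counted interval was therefore taken to be the gene body without 1000 bp at each end. That the missing length lies equally at both ends is an assumption, on which the positions of starts inside or outside the interval rest. In 1-based positions of the deposited table, which names no genome build, Gpx4 spanned 80047166 to 80056439 on chromosome 10 and Tbk1 121546455 to 121586872 on the same chromosome. Mb21d1 lay at 78430518 to 78443525 and Bsn at 108096022 to 108190419 on chromosome 9. On chromosome 7 were Irf3 at 44997648 to 45002848, Trpm4 at 45303155 to 45334070 and Stim1 at 102261514 to 102437319. Ppargc1a spanned 51454249 to 52116058 on chromosome 5, Asic1 99669686 to 99701130 on chromosome 15 and Tmem173 35733678 to 35740554 on chromosome 18. Counted lengths, introns and exons together, ran from 3.201 kb for Irf3 and 4.877 kb for Tmem173 to 173.8 kb for Stim1 and 659.8 kb for Ppargc1a. An overlapping interval was present for Trpm4, which holds the ribosomal pseudogene Rpl14-ps1, and for Bsn, which holds 4930447F24Rik.

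Of the 8 genes whose starts could be looked up, 4 had a transcript start inside the interval taken as counted. RefSeq promoter windows (250 bases before to 50 after a start, GRCm38.p6) were on hand for these 8 genes, and the deposited spans of 5 genes, among them Gpx4 and Stim1, were identical to the RefSeq spans of that build. Of the 4 Gpx4 windows, 3 lay wholly inside the counted interval, with starts 6.399, 6.493 and 6.845 kb from the 5′ end of the span. A window also lay inside the counted interval for Stim1 (6.305 kb), Asic1 (22.5 kb) and Ppargc1a (548.3 kb from the 5′ end). For Bsn, Mb21d1, Tbk1 and Irf3 the start lay within the end taken as uncounted, and no window was on hand for Trpm4 and Tmem173.

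**Figure D1:**
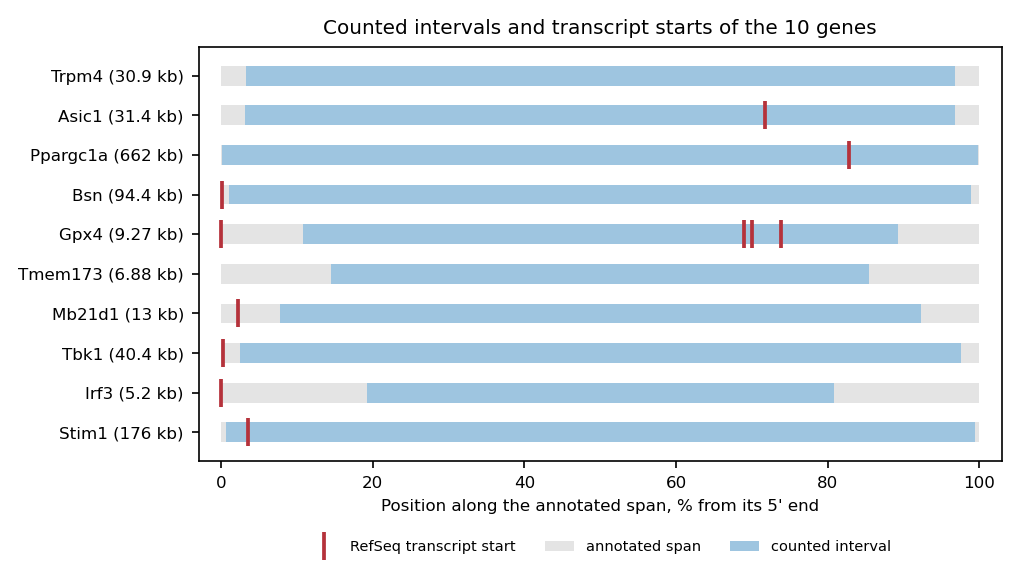
Counted interval as inferred from the RPKM divisor (blue) within the annotated span (grey) of each gene, with RefSeq transcript starts as red ticks; the horizontal axis is the position in percent of the span from its 5′ end. Starts fall inside the counted interval of Gpx4 (3 starts), Stim1, Asic1 and Ppargc1a, and in the end taken as uncounted for Bsn, Mb21d1, Tbk1 and Irf3.

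The promoter windows inside counted intervals are shown because, with trimming as inferred, their DNA is part of what was counted, which is not so for the windows of Bsn, Mb21d1, Tbk1 and Irf3. They are given 5′ to 3′ on the gene's strand, from RefSeq, GRCm38.p6; of the 3 Gpx4 windows the 2 that do not overlap are printed. Capitals mark matches on either strand to a GC box (CCGCCC), the core of an antioxidant response element (TGANNNNGC), the short form of a cAMP response element (TGACG) or a TATA box (TATAAA).
Gpx4 chr10:80053315-80053614 (+ strand): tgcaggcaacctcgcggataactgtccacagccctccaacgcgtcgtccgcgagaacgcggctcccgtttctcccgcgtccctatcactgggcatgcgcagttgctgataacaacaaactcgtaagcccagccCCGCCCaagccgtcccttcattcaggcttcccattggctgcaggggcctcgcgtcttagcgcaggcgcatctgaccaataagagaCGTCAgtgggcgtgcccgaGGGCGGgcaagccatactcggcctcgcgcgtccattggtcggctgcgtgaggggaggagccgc
Gpx4 chr10:80053761-80054060 (+ strand): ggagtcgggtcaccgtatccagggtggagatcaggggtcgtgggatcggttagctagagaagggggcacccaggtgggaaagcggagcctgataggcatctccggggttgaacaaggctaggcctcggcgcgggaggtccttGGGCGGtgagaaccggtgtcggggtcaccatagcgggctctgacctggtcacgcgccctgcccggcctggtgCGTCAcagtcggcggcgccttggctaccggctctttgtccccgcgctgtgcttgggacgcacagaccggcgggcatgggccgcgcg
Stim1 chr7:102267569-102267868 (+ strand): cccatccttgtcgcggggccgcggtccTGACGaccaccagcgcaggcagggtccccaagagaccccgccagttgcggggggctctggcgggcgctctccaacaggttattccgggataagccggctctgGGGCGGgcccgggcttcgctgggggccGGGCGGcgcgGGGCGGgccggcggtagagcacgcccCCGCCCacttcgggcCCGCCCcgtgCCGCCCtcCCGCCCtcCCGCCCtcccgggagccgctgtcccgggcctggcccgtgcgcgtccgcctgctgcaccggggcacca
Ppargc1a chr5:51567676-51567975 (- strand): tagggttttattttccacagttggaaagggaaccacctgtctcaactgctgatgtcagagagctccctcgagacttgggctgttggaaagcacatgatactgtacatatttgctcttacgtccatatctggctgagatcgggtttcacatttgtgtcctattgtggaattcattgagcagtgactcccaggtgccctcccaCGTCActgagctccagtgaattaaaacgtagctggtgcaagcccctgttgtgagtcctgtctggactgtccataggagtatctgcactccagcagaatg
Asic1 chr15:99691974-99692273 (+ strand): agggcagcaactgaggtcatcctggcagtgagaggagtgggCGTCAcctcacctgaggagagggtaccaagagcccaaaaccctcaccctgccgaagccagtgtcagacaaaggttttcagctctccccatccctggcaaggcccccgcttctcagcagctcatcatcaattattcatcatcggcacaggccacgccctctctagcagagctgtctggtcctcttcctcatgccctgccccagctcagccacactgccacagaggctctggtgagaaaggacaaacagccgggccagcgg

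The Gpx4 windows were rich in CpG, with 31 and 29 CpG dinucleotides and observed-to-expected ratios of 1.01 and 0.856, and the Stim1 window had 38 CpG and a ratio of 0.822. The Ppargc1a and Asic1 windows had 5 and 7 CpG and ratios of 0.282 and 0.268. Stim1 held 8 GC boxes and the Gpx4 windows 2 and 1, while Ppargc1a and Asic1 held none; 35.7% of the 32851 RefSeq windows hold this motif. All 5 printed windows held 1 short cAMP response element, which 20.8% of windows hold. None held the antioxidant core (41.3% of windows) or a TATA box (13.6%). No motif matches overlapped in the printed windows. A match describes letters, not a bound site.

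Reads per gene ranged widely. For each of the 10 genes, the within-stage SD on the log2 scale exceeded that from counting alone. For Ppargc1a they were 0.270 and 0.0272, and for Tmem173 1.26 and 0.731. Ppargc1a had 950 to 11062 reads per library and Stim1 275 to 2848, against 0 to 42 for Tmem173, 0 to 50 for Irf3 and 0 to 63 for Mb21d1. All 10 passed the filter on low counts that kept 29902 intervals. Reads in intervals were 3.71 × 10⁶ to 30.9 × 10⁶ per library, of which mitochondrial genes took 8.36% to 64.7%; onset replicate 3 had the lowest mitochondrial share and the highest scaling factor (2.02). Ganglion cell marker genes, all 20 tested and none without reads over all libraries together, had a median of 0.602 CPM per kb in naive libraries. Rod markers (0.611) and amacrine and horizontal cell markers (0.615) stood as high. Microglia and macrophage (0.270), oligodendrocyte (0.263) and lymphocyte markers (0.261) stood lower. Between them were Mueller glia and astrocyte (0.525), cone (0.413) and bipolar cell markers (0.409). Gene-body signal thus stood no higher at ganglion cell markers than at rod or amacrine and horizontal cell markers.

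Per length, Gpx4 carried by far the most signal of the 10 genes and the cGAS and STING genes the least. In CPM (reads per 10⁶ TMM-scaled library reads) per kb of counted interval, naive libraries averaged 1.996 ± 0.766 for Gpx4 (SD, n = 5), above 96.9% of the 29761 tested intervals of at least 500 bp. Ppargc1a followed at 0.495 ± 0.0746 and Stim1 at 0.480 ± 0.0809 CPM per kb, then Bsn at 0.360 ± 0.117, next to the median of all tested intervals, 0.361. Irf3 (0.325 ± 0.185), Tbk1 (0.307 ± 0.101), Trpm4 (0.255 ± 0.0847) and Asic1 (0.255 ± 0.0702) lay below it. Mb21d1 averaged 0.218 ± 0.125 and Tmem173 0.187 ± 0.286 CPM per kb, above 19.2% and 12.4% of intervals. Naive libraries of Gpx4 (1.06 to 3.11 CPM per kb) did not overlap those of any other member, and each other pair of neighbours in this order overlapped. Intervals of like length, within 1.5-fold, gave a similar place, with Gpx4 above 98.2% of 5628 of them. Gpx4, Ppargc1a, Stim1 and Asic1 held a promoter window in the counted interval, and Bsn, Irf3, Tbk1 and Mb21d1 did not. Among counted intervals of 5 to 10 kb, the naive median was 0.412 CPM per kb with such a window and 0.302 without. The part of these windows in the order was not tested. The RPKM values deposited by the authors kept the order apart from the 2 lowest genes, which changed places.

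**Figure D2:**
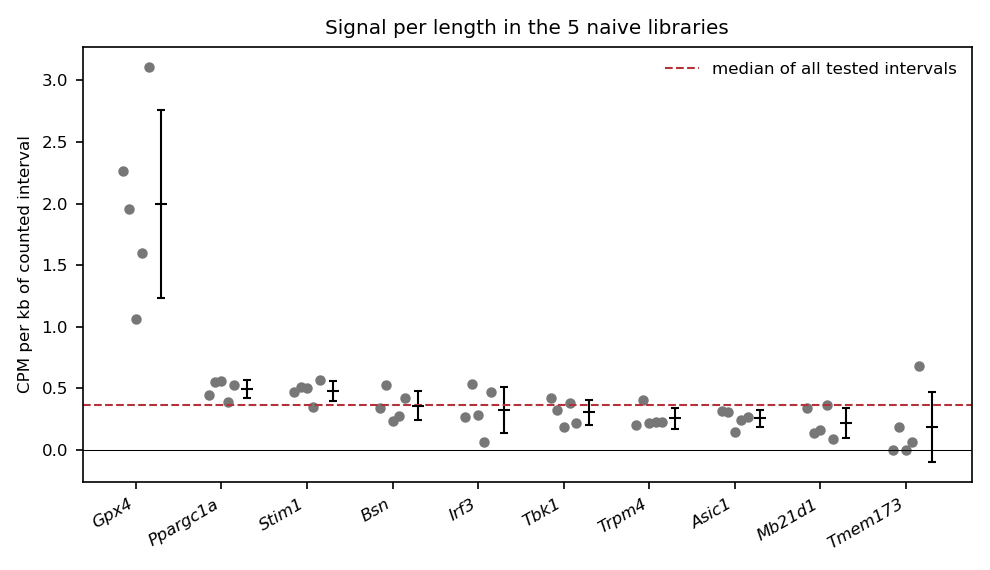
Signal per length (CPM per kb of counted interval) of the 10 genes in the 5 naive libraries; points are libraries, bars the mean ± SD, and the dashed line is the median of all tested intervals (0.361). Gpx4 stands at 1.06 to 3.11, all 5 libraries of Ppargc1a (0.391 to 0.561) also lie above the line, and those of the other 8 genes lie on both sides of it or below.

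Across the stages of EAE, none of the 10 genes passed adjustment over all intervals when set against naive cells. With 3 to 5 libraries per group, a difference that did not pass cannot be taken as absent. Each stage was set against naive with edgeR's quasi-likelihood test and Benjamini-Hochberg adjustment over 29902 intervals, and the pooled stages and the stages among themselves likewise. edgeR called 0 members and 0 intervals in each of these comparisons, which is 0% of those tested. At an unadjusted p under 0.05 it had 348 intervals at the presymptomatic stage, 1480 at onset and 1080 at peak, and DESeq2 had 516, 1834 and 1373 and limma voom 1628, 1698 and 946. DESeq2 called 0, 0 and 1 intervals and limma voom 0 in each; the 1 was D6Ertd474e, named after its value was seen.

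Looser readings gave few members too. At an unadjusted p under 0.05 in edgeR, 0 members were higher and 0 lower than naive at the presymptomatic stage, where 0.351% and 0.813% of all intervals were. At onset 1 member was higher and 0 lower, beside 1.57% and 3.38% of intervals; at peak 0 were higher and 0 lower, beside 1.8% and 1.81%. With the stages pooled 0 were higher and 0 lower, beside 0.629% and 1.73% of intervals. Between stages, 1 member was higher and 0 lower for onset against presymptomatic (2.41% and 1.72% of intervals), 0 and 0 for peak against presymptomatic (2.21% and 1.2%), and 0 higher and 1 lower for peak against onset (2.99% and 3.66%). The 1 member was Gpx4 each time.

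Under TMM scaling, no member had libraries wholly above or wholly below the naive ones at any stage. Such separation was seen for 0.365% of intervals in the higher and 0.482% in the lower direction at the presymptomatic stage, 1.6% and 0.936% at onset and 0.502% and 0.475% at peak. Between stages, Gpx4 alone separated, in the higher direction for onset against presymptomatic (5.38% of intervals, and 4.69% in the lower) and in the lower direction for peak against onset (4.18%, and 2.56% in the higher). For peak against presymptomatic, 0 members separated, beside 1.51% of intervals higher and 1.21% lower. Scaled by nuclear interval reads instead, 3 more separations appeared: Stim1 higher for onset against naive (1.696% of intervals), Ppargc1a lower for peak against presymptomatic (1.191%) and Stim1 lower for peak against onset (3.73%).

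**Figure D3:**
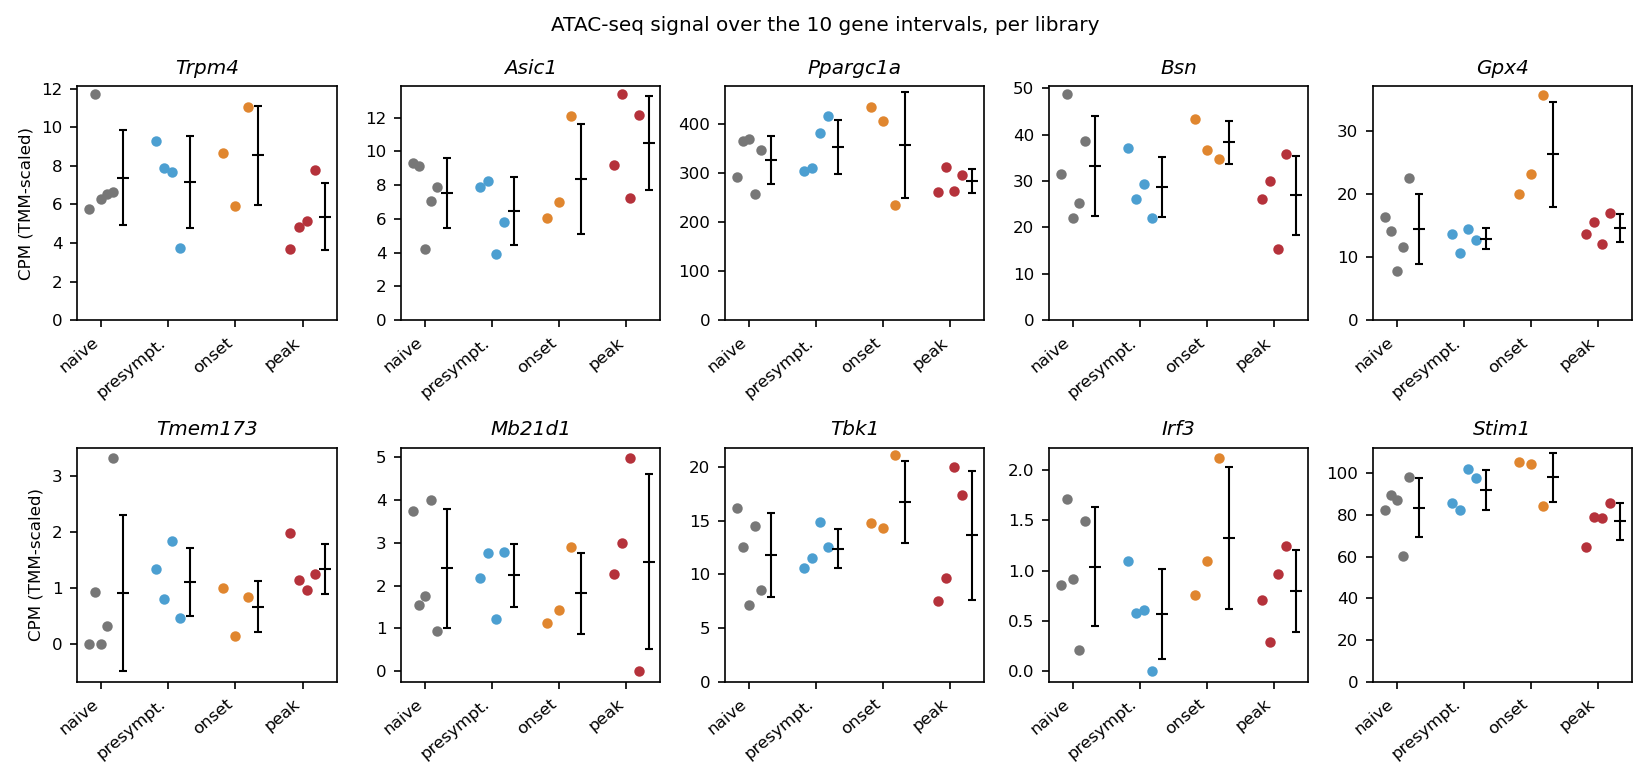
Scaled CPM of the 10 gene intervals in each library (points) by stage, with the mean ± SD at the right of each group; each panel has its own vertical axis. The onset libraries of Gpx4 (20.1 to 35.8 CPM) lie above all presymptomatic (10.7 to 14.5) and peak libraries (12.04 to 17.1) and overlap the naive ones (7.74 to 22.6).

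Gpx4 encodes the glutathione peroxidase that reduces lipid hydroperoxides in membranes and so protects cells from ferroptosis. Its CPM was 16.5, 14.2, 7.74, 11.6 and 22.6 in the naive libraries, 13.7, 10.7, 14.5 and 12.8 in presymptomatic, 20.1, 23.2 and 35.8 in onset and 13.7, 15.5, 12.04 and 17.1 in peak libraries. The onset libraries were the highest of the series but for naive replicate 5, which lay between onset replicates 1 and 2. Onset libraries averaged 26.4 ± 8.32 CPM (SD, n = 3) and naive libraries 14.5 ± 5.57 (SD, n = 5). The log2 difference was 0.86 ± 0.29 (SE), which is 1.82-fold with a 95% interval of 1.21 to 2.74. The adjusted p by edgeR was 0.972, so the difference did not pass.

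The onset libraries of Gpx4 also lay above those of the other 2 stages of EAE. So did 5.38% of all intervals for onset against presymptomatic, and 4.18% were lower at peak than at onset. Onset libraries stood 1.03 ± 0.31 (SE) above presymptomatic ones on the log2 scale, with a 95% interval of 0.40 to 1.66 (edgeR, adjusted p = 1.00). Peak libraries stood −0.86 ± 0.31 (SE) from onset ones, with a 95% interval of −1.50 to −0.23 (edgeR, adjusted p = 0.737). Presymptomatic libraries (−0.17 ± 0.27, SE) and peak libraries (0.003 ± 0.278, SE) were close to naive ones. The edgeR test that any stage differed from naive gave an adjusted p of 1.00 for Gpx4. Gpx4 was the 1 member under an unadjusted p of 0.05 in it, as were 3.16% of all intervals.

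Markers of another cell type and 1 library moved with the onset value of Gpx4. None of the 19 rod photoreceptor markers lacked reads over all libraries together. The 18 tested summed to 456 to 816 CPM in onset libraries and 285 to 422 CPM in naive libraries. They summed to 278 to 448 CPM in presymptomatic and 260 to 457 CPM in peak libraries. Peak replicate 4 (457 CPM) and presymptomatic replicate 4 (448 CPM) had rod sums near that of onset replicate 1 (456 CPM). Their Gpx4 was 17.1 and 12.8 CPM, against 20.1 CPM in onset replicate 1. The rod sum was highest in onset replicate 3, which also had the highest Gpx4. Over the 16 libraries, which share 1 scaling, log2 Gpx4 CPM had r = 0.721 with the log2 rod sum; the part of rods in the difference was not tested. It had r = −0.779 with the log2 share of nuclear reads in olfactory and vomeronasal receptor genes, which are known mainly from the sensory neurons of the nose. With that share as a covariate the onset value was 0.62 ± 0.25 (SE; edgeR, adjusted p = 1.00). Without onset replicate 3 it was 0.58 ± 0.32 (SE; edgeR, adjusted p = 0.979). Log2 Gpx4 CPM had r = −0.470 with the mitochondrial share of reads, which was lowest in onset replicate 3 (8.36%). The part of either share in the onset value was not tested. In these bulk libraries a change in the share of a cell type and a change in accessibility per cell cannot be told apart. Nor can either be told apart from technical differences between libraries.

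**Figure D4:**
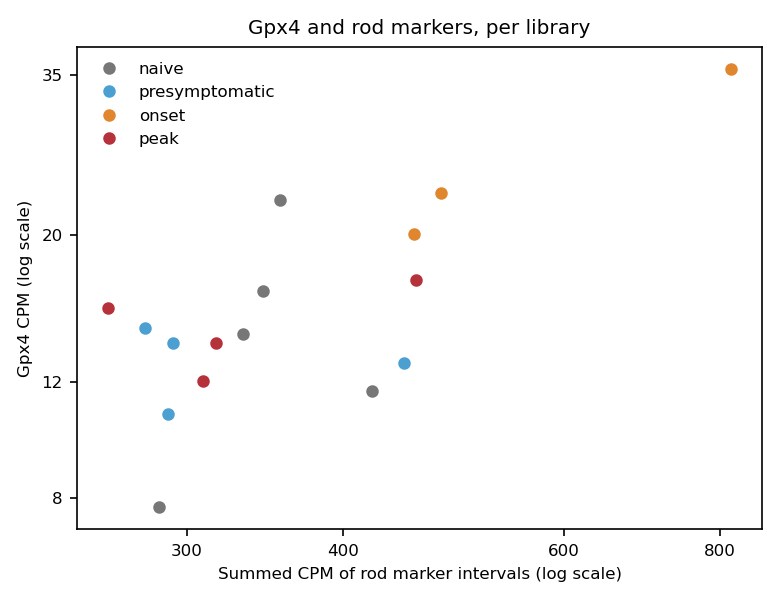
Gpx4 CPM against the summed CPM of rod marker intervals, both on log axes, 1 point per library coloured by stage. Onset replicate 3 is the point at the upper right (35.8 and 816 CPM), and the other 2 onset libraries lie at 20.1 and 23.2 CPM of Gpx4.

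Among counted intervals of 5 to 10 kb, those that contain a RefSeq promoter window, as Gpx4 does, lay on the higher side at onset in a larger share than those that do not; the difference in shares was not tested. Of 404 such intervals 61.1% were higher (median 0.11 on the log2 scale), and of the 2875 others 50.3% were. At peak the shares were 39.4% of the intervals with a window and 49.8% of the others. Whether the window accounts for any of the Gpx4 difference was not tested.

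The other genes of ferroptosis and glutathione metabolism did not pass at any stage. Of 35 listed genes, 32 were tested, and 12 were higher at the presymptomatic stage (list median −0.08, all intervals −0.06), 18 at onset (0.07, all intervals −0.01) and 21 at peak (0.10, all intervals −0.03). Among all intervals 41.6%, 48.6% and 47.1% were higher at these stages, beside which the counts of the lists below also stand. At onset Gss, glutathione synthetase, stood at 0.71 ± 0.38 (SE) and Hmox1, the haem oxygenase, at −0.86 ± 0.56. At peak the mitochondrial channel genes Vdac2 and Vdac3, known as targets of the ferroptosis inducer erastin, stood at 1.09 ± 0.49 and −0.89 ± 0.40. At the presymptomatic stage the smallest p values belonged to Pstk, a kinase of selenocysteine synthesis (0.46 ± 0.46), and the lipoxygenase gene Alox15 (−0.52 ± 0.43).

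The 4 genes of the cGAS to IRF3 pathway showed no shared direction, and 3 of them had few reads and 95% intervals that spanned several-fold. Mb21d1, the DNA sensor cGAS, had 3.74, 1.54, 1.76, 4.01 and 0.946 CPM in naive, 2.19, 2.76, 1.22 and 2.79 in presymptomatic, 1.13, 1.43 and 2.90 in onset and 2.27, 2.99, 4.98 and 0 in peak libraries. The groups overlapped throughout, and peak replicate 4, with 0 reads, allows a level of up to 0.933 CPM (3 reads). Its log2 fold changes were −0.10 ± 0.57 (SE) at the presymptomatic stage, −0.35 ± 0.61 at onset and 0.18 ± 0.57 at peak. The within-stage SD of Mb21d1, 1.28 on the log2 scale, was above that of 96.9% of the 5306 intervals with like counts, and counting alone gives 0.469.

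Tmem173, the adaptor STING, had 0, 0.926, 0, 0.316 and 3.31 CPM in naive, 1.34, 0.798, 1.84 and 0.466 in presymptomatic, 1.00, 0.147 and 0.829 in onset and 1.98, 1.14, 0.964 and 1.24 in peak libraries. Naive libraries held both the lowest and the highest values of the series; the 2 at 0 reads, replicates 1 and 3, allow up to 0.321 and 0.230 CPM (3 reads). The log2 fold changes were 0.31 ± 0.85 (SE) at the presymptomatic stage, −0.56 ± 0.97 at onset and 0.53 ± 0.88 at peak. The 95% interval at onset ran from 0.173-fold to 2.67-fold.

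Tbk1, the kinase that both STING and other innate sensors use, had 16.2, 12.6, 7.12, 14.5 and 8.51 CPM in naive, 10.6, 11.5, 14.9 and 12.6 in presymptomatic, 14.8, 14.3 and 21.1 in onset and 7.51, 9.69, 20.1 and 17.4 in peak libraries. Onset replicate 3 was the highest, and its onset companions lay within the naive range. Tbk1 stood at 0.07 ± 0.30 (SE) at the presymptomatic stage, 0.51 ± 0.32 at onset and 0.20 ± 0.30 at peak, with an adjusted p of 0.972 by edgeR at onset. Its r with the rod sum over the 16 libraries was 0.566.

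Irf3, the transcription factor that induces interferon-beta, had 0.855, 1.71, 0.919, 0.211 and 1.498 CPM in naive, 1.09, 0.580, 0.612 and 0 in presymptomatic, 0.753, 1.10 and 2.12 in onset and 0.709, 0.285, 0.964 and 1.24 in peak libraries. All groups overlapped; the 0 reads in presymptomatic replicate 4 allow up to 0.699 CPM (3 reads). Irf3 stood at −0.75 ± 0.70 (SE) at the presymptomatic stage, 0.34 ± 0.71 at onset and −0.47 ± 0.74 at peak. Of 30 further genes of cGAS and STING signalling, 26 were tested, with 7 higher at the presymptomatic stage (median −0.10), 16 at onset (0.10) and 10 at peak (−0.07), and none passed. The onset median of this list was −0.14 to 0.11 over the other settings. Samhd1, a dNTP hydrolase that limits cytosolic DNA, stood at −0.92 ± 0.30 (SE) at the presymptomatic stage and the adaptor gene Ticam1 at 1.19 ± 0.79. Nlrx1, a mitochondrial regulator of innate signalling, stood at 1.16 ± 0.52 at onset, and the DNA sensor gene Ifi204 at −1.02 ± 0.51 at onset and −0.90 ± 0.49 at peak.

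The channel genes Trpm4 and Asic1 differed most at peak, in opposite directions, and neither passed. Cell type markers shifted at peak too, none passing. Ganglion cell markers were higher for 17 and lower for 3 of 20 (median 0.25). Mueller glia and astrocyte markers were higher for 2 and lower for 12 of 14 tested (median −0.32). The part of cell types in the channel gene values was not tested. Trpm4, a calcium-activated channel for monovalent cations, had 5.77, 11.7, 6.28, 6.54 and 6.62 CPM in naive, 9.30, 7.90, 7.69 and 3.73 in presymptomatic, 8.66, 5.94 and 11.1 in onset and 3.69, 4.85, 5.14 and 7.77 in peak libraries. In 3 of 4 peak libraries it lay below all naive libraries, and peak replicate 4 lay above 4 of the 5. Peak libraries averaged 5.36 ± 1.73 CPM (SD, n = 4) and naive libraries 7.39 ± 2.45 (SD, n = 5). The log2 difference was −0.50 ± 0.34 (SE; edgeR, adjusted p = 1.00). The values were −0.03 ± 0.32 at the presymptomatic stage and 0.20 ± 0.35 at onset.

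Asic1, a sodium channel opened by protons, had 9.29, 9.16, 4.21, 7.06 and 7.88 CPM in naive, 7.90, 8.27, 3.95 and 5.82 in presymptomatic, 6.03, 7.00 and 12.1 in onset and 9.21, 13.4, 7.23 and 12.1 in peak libraries. Peak replicates 2 and 4 exceeded all naive libraries and the other two peak libraries did not. Peak libraries averaged 10.5 ± 2.79 CPM (SD, n = 4) and naive libraries 7.52 ± 2.07 (SD, n = 5). The log2 difference was 0.47 ± 0.32 (SE; edgeR, adjusted p = 1.00). Asic1 stood at −0.21 ± 0.32 at the presymptomatic stage and 0.16 ± 0.34 at onset, and peak libraries stood 0.68 ± 0.34 above presymptomatic ones (edgeR, adjusted p = 0.999). The 11 other TRPM and ASIC genes, all tested, had 3 higher at the presymptomatic stage, 7 at onset and 7 at peak, with list medians of −0.13, 0.03 and 0.05, the onset median being −0.05 with the receptor share as a covariate. Asic4 stood at 0.52 ± 0.30 (SE) at onset, Asic5 at −0.50 ± 0.30 at the presymptomatic stage, and at peak Trpm5, the closest relative of Trpm4, at 0.61 ± 0.38 and Asic3 at −0.47 ± 0.37.

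Stim1, which senses calcium in the endoplasmic reticulum and opens store-operated channels, was the most evenly covered member. Its CPM was 82.2, 89.4, 86.9, 60.4 and 98.0 in naive, 85.5, 82.3, 102 and 97.6 in presymptomatic, 105, 104 and 84.3 in onset and 64.5, 79.0, 78.4 and 85.5 in peak libraries. Onset replicates 1 and 2 lay above all naive libraries and onset replicate 3 within them. The within-stage SD was 0.205 on the log2 scale, the lowest of the 10 genes and above that of 11.3% of the 1215 intervals with like counts. Log2 fold changes were 0.14 ± 0.19 (SE) at the presymptomatic stage, 0.23 ± 0.20 at onset and −0.12 ± 0.19 at peak. With the stages pooled, the 95% interval ran from 0.853-fold to 1.32-fold. Of 18 other genes of store-operated calcium entry, 9 were higher at the presymptomatic stage, 10 at onset and 12 at peak, and none passed; the onset median, 0.05, was −0.08 to 0.11 over the other settings. The channel gene Trpc5 stood at −0.89 ± 0.44 (SE) at onset and Trpc1 at 0.39 ± 0.25 at peak, with Saraf, which slows the entry, at −0.47 ± 0.37 at peak.

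Ppargc1a, which encodes PGC-1 alpha, the coactivator that drives mitochondrial biogenesis, had 293, 366, 369.8, 258 and 348 CPM in naive, 304, 310.4, 381 and 416 in presymptomatic, 434, 405 and 234 in onset and 261, 313, 264 and 295 in peak libraries. Onset replicates 1 and 2 were above all naive libraries and onset replicate 3 was below them all. Ppargc1a stood at 0.11 ± 0.20 (SE) at the presymptomatic stage, 0.13 ± 0.21 at onset and −0.21 ± 0.20 at peak, and pooled over stages at 0.01 ± 0.16, with a 95% interval from 0.803-fold to 1.26-fold. The 30 other genes of this programme had 14 higher at the presymptomatic stage (median −0.03), 21 at onset (0.22) and 16 at peak (0.03), and none passed. With the receptor share as a covariate 18 were higher at onset (median 0.13). Crtc1, a coactivator of CREB, stood at 0.59 ± 0.28 (SE) at onset and Esrrg, an oestrogen-related receptor gene, at −0.31 ± 0.20. At peak Ncor1, a corepressor, stood at 0.58 ± 0.24 and the transcription factor gene Yy1 at −0.46 ± 0.27. At the presymptomatic stage the deacetylase gene Sirt1 stood at −0.67 ± 0.37 and Polrmt, the mitochondrial RNA polymerase, at 0.74 ± 0.59.

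Bsn encodes bassoon, a scaffold of the presynaptic active zone. It had 31.4, 48.8, 21.99, 25.3 and 38.7 CPM in naive, 37.2, 26.1, 29.4 and 22.1 in presymptomatic, 43.4, 36.6 and 34.8 in onset and 26.2, 30.1, 15.4 and 35.8 in peak libraries, with all stages inside the naive range but for peak replicate 3. Bsn stood at −0.21 ± 0.26 (SE) at the presymptomatic stage, 0.20 ± 0.27 at onset and −0.32 ± 0.26 at peak. Its r with the log2 receptor share over the 16 libraries was −0.855, the farthest from 0 of the 10 genes. With that share as a covariate the onset value was −0.08 (edgeR adjusted p = 1.00).

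The 28 other active zone genes lay mostly on the lower side at 2 stages, without any passing. At the presymptomatic stage 26 of 28 were lower, at a median of −0.12, where 41.6% of all intervals were higher, at a median of −0.06. Of the 28, 18 were lower with the receptor share as a covariate and 18 with the replicate number as a block. At peak 22 of 28 were lower (median −0.11), where 47.1% of all intervals were higher (median −0.03). With the replicate number as a block 16 were lower (median −0.06). At onset 18 were higher (median 0.05), beside 48.6% of all intervals (median −0.01). With the receptor share as a covariate 8 of the 28 were higher (median −0.07). Unc13a, a priming factor of synaptic vesicles, stood at −0.46 ± 0.29 (SE) at the presymptomatic stage and −0.61 ± 0.29 at peak, Syn1, synapsin, at −0.57 ± 0.30 at onset, and Bzrap1, a RIM-binding protein, at 0.44 ± 0.27 at onset. Erc1, another scaffold, stood at 0.24 ± 0.21 at peak and the calcium channel gene Cacna1f at 0.23 ± 0.29 at the presymptomatic stage.

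**Figure D5:**
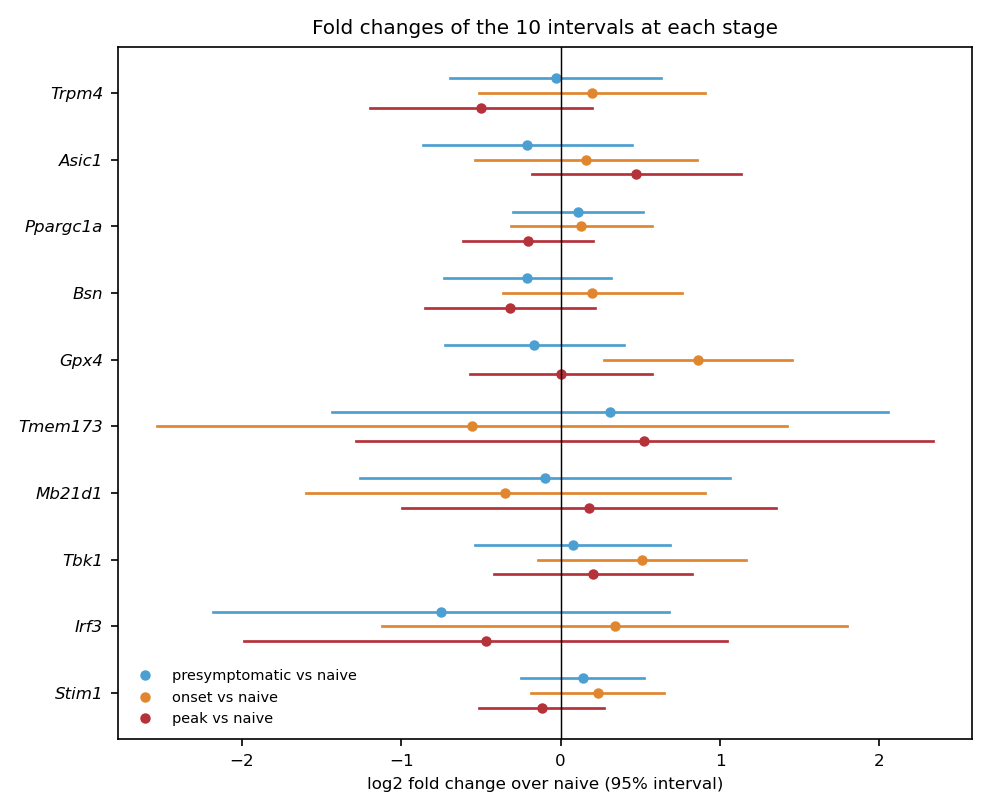
Log2 fold change over naive of each gene at the presymptomatic, onset and peak stages (points) with 95% intervals (lines). The interval excludes 0 for Gpx4 at onset (0.27 to 1.45) and for no other gene or stage, and no value passed adjustment over all intervals.

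Of all tested intervals, 41.6% were higher than naive at the presymptomatic stage, 48.6% at onset and 47.1% at peak. Read as a group, the 10 genes had 4, 8 and 5 higher. Their median log2 fold changes were −0.06, 0.20 and −0.06, beside −0.06, −0.01 and −0.03 over all tested intervals; over the other settings the presymptomatic median was −0.07 to 0.02, the onset median 0.08 (receptor share as a covariate) to 0.29 (replicate number as a block) and the peak median −0.13 to 0.01. At onset the number of members higher was 5 to 9 over the other settings that leave out no single library. Between stages, log2 differences ran from −0.87 (Tmem173) to 1.09 (Irf3) for onset against presymptomatic, −0.47 (Trpm4) to 0.68 (Asic1) for peak against presymptomatic and −0.86 (Gpx4) to 1.08 (Tmem173) for peak against onset. Across the 16 libraries, which share 1 scaling, the 45 pairs of members had a median r of 0.146 in log2 CPM. Ppargc1a and Stim1, both long genes, had the highest (0.800) and Ppargc1a and Asic1 the lowest (−0.580).

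By the same measure over 16 libraries, the intervals most like Gpx4 were Tob2 (r = 0.923) and the microRNA interval Mir191 (0.913), neither a member. Those most like Stim1 were Oxct1 and Plcxd2 (0.951 each), those most like Ppargc1a Samd5 (0.946) and Nrcam (0.936), and those most like Bsn Msi2 (0.950) and Med25 (0.941). For Tbk1 they were Lars (0.846) and 1600029I14Rik (0.825), for Irf3 Slco2b1 (0.923) and Suv420h2 (0.908), for Mb21d1 Tgds (0.942) and Nlrp10 (0.928) and for Tmem173 Tcirg1 (0.873) and Cecr5 (0.850). Asic1 was nearest to Stmnd1 (0.856) and Mfsd7a (0.855), and Trpm4 to an unnamed transcript (0.842) and Zfp790 (0.840). These are the highest of 29902 values for each gene, and with so many intervals some are high without any relation.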

How the data were processed

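Sorted retinal ganglion cells were profiled by ATAC-seq in 16 libraries, grouped by the titles in the labels. Per the submitters' processing notes, reads were processed with cutadapt, HISAT2 and HTSeq; the sources used here give no versions, genome build, duplicate handling or shift of read ends. The deposited counts are whole reads per gene interval. The deposited RPKM values are these counts scaled to depth and to a length that equals the gene span less 2000 bp. Intervals of longer spans were thus taken to be trimmed gene bodies. For spans under 2000 bp that length is 2000 bp less the span, which no trimmed gene body can have. Such intervals stayed among those tested, and values per kb use this length for them too.

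Counts were filtered with filterByExpr (minimum count 10, minimum total 15), scaled by TMM and fitted with a mean per group by edgeR 4.0.16 in R 4.3.3. A call needed an adjusted p under 0.05; 2 was the prior count for log2 CPM. Alternatives used DESeq2 1.42.0 and limma 3.58.1. Standard errors come from the F statistic. Intervals from 0 reads cover counting error only. Genes named beside the members had the smallest p on each side of each list and comparison, and the 2 most alike intervals per member had the highest r. Members and lists were chosen with earlier results of these data known. Gene names matched RefSeq for 89.5% of intervals. The name of 1 interval called in an alternative is not reported here.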

Additional observations from a re-analysis of the deposited data

Results flagged for a closer look

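Of 30 groups of 4 or 5 libraries examined, in which chance alone would flag about 1 in 20, 2 held a library far from the rest. Trpm4 in naive replicate 2 had 11.7 CPM, the highest of the 5 naive libraries, the others lying at 5.77 to 6.62. Tmem173 in naive replicate 5 had 3.31 CPM from 42 reads, the others lying at 0 to 0.926. Without naive replicate 2 the fold change of Trpm4 at peak was −0.26, and without naive replicate 5 that of Tmem173 was 1.88; neither passed the test.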

How the results depend on the processing

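The fold change of Gpx4 at onset kept its direction in all 25 other settings, at 0.58 to 1.10, with adjusted p of at least 0.5, the lowest adjusted p of any member in a comparison with naive. Of 989 fold changes of members recomputed against naive, 73 had the opposite sign from the reported value and none passed; the cause was not tested. edgeR called 0 intervals in all settings but 1 comparison, while DESeq2 called 1 at peak against naive, 1 at onset against presymptomatic, 5 at peak against onset (Adh5, Nrl, Zfp263, Gm41702 and Emd, named after their values were seen) and 5 for any stage, none of them a member. With the replicate block edgeR called 1 interval, not a member, at onset against presymptomatic. Deviations of libraries sharing a replicate number had a median r of -0.00586 over 21 pairs, 6 above 0.1. Those of libraries with different numbers had a median of 0.0126 over 74 pairs, 17 above 0.1. The labels do not state that the numbers pair libraries, so they were not taken as pairs. The block changed no member's call. With limma voom the opposite sign was seen for Trpm4 0.0899, Tbk1 −0.0710, Asic4 −0.0487 at the presymptomatic stage, Asic1 −0.20, Tmem173 0.79 at onset, Gpx4 −0.00904, Mb21d1 −0.71, Tbk1 −0.0327, Ticam1 −0.16 at peak, Asic1 −0.0247 at the pooled stages. With the receptor share as a covariate the opposite sign was seen for Trpm4 0.0551 at the presymptomatic stage, Asic1 −0.0798, Bsn −0.0833, Mb21d1 0.0877, Trpc5 0.0261 at onset, Mb21d1 0.00619 at the pooled stages. Libraries 16 and 17 are presymptomatic replicate 4 and onset replicate 3, whose label numbers fall out of stage order. Without libraries 16 and 17 the opposite sign was seen for Trpm4 0.17, Pstk −0.15 at the presymptomatic stage, Trpm4 −0.0424, Asic1 −0.20, Irf3 −0.17 at onset, Gpx4 −0.00715 at peak. Gpx4 at onset stood at 0.58 ± 0.32 (SE) without them. With the replicate block the opposite sign was seen for Gpx4 0.0528, Tbk1 −0.0568 at the presymptomatic stage, Tmem173 0.70 at onset, Mb21d1 −0.0842 at peak. Without the filter on low counts the opposite sign was seen for Gpx4 −0.00994 at peak. Without mitochondrial intervals the opposite sign was seen for Gpx4 −0.000728 at peak. Leaving out single libraries reversed signs at the presymptomatic stage for Trpm4 (−0.18 to 0.21), Gpx4 (−0.32 to 0.0533), Tmem173 (−0.0259 to 1.67), Mb21d1 (−0.30 to 0.17), Tbk1 (−0.0590 to 0.21), Pstk (−0.16 to 0.71); at onset for Trpm4 (−0.0434 to 0.44), Asic1 (−0.20 to 0.34), Ppargc1a (−0.0254 to 0.35), Tmem173 (−0.93 to 0.80), Irf3 (−0.17 to 0.61); at peak for Gpx4 (−0.16 to 0.22), Mb21d1 (−0.31 to 0.53), Tbk1 (−0.0594 to 0.40); at the pooled stages for Trpm4 (−0.20 to 0.13), Asic1 (−0.00768 to 0.23), Ppargc1a (−0.0626 to 0.0786), Bsn (−0.23 to 0.0735), Tmem173 (−0.23 to 1.45), Mb21d1 (−0.29 to 0.17), Stim1 (−0.0121 to 0.15). Tmem173, Irf3 and Mb21d1 had the fewest reads in total, never more than 63 per library. Their within-stage SD also exceeded that from counting alone, for Mb21d1 at 1.28 against 0.469 on the log2 scale.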
